A study of Mus musculus with 44 samples.

Results

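The comparison covered here is that of KO with WT liver on HFD after the KO libraries with fewer reads on long genes were set aside. Slc16a13 encodes a monocarboxylate transporter of the plasma membrane for which lactate is a substrate. The series holds 44 libraries from 11 WT and 11 KO mice, of which 22 were from liver and the rest from skeletal muscle. For each liver library, the log2 CPM (read counts scaled to library size, relative to the gene's mean over the 22 livers) was regressed on the log2 of gene length over 11829 genes. KO livers with a slope of 0 or above were kept, which left 7 of 11, and these were compared with all 11 WT livers. The 4 other KO livers were not part of the test and are given as values only.

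All mice were male C57BL/6N littermates of 20 weeks, fed HFD for 15 weeks and fasted overnight before they were killed. KO mice carried a constitutive CRISPR/Cas9 deletion of the proximal promoter and exons 1 to 3 of Slc16a13, so the gene was deleted in every organ and not in liver alone. WT mice carried no deletion. RNA was poly(A)-selected, and the libraries were stranded and read from a single end. Which library went into which sequencing pool was not used here, so a pool and a genotype cannot be told apart.

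The slope chose the members and is given as a description. It ranged from 0.0408 to 0.103 (median 0.0667) in the 11 WT livers and from 0.0405 to 0.113 (median 0.0833) in the 7 kept KO livers, so both groups covered nearly the same range. In the 4 other KO livers it lay between -0.566 and -0.0829 per doubling of gene length. Just inside the threshold was KO animal 587 with 0.0405, and just outside was KO animal 611 with -0.0829. The same threshold would have removed no WT liver. Total counts ranged from 20150712 to 33733103 (median 24538782) in WT livers, from 20517872 to 25567448 (median 24723854) in kept KO livers and from 27458545 to 31084170 in the other KO livers. Apart from the slope, KO animal 597 stood apart among the kept KO livers in Cyp1a1 and acute phase genes, WT animal 624 in immediate early genes and WT animal 516 in skeletal muscle transcripts, and results that rest on them are given with and without them.

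**Figure D1:**
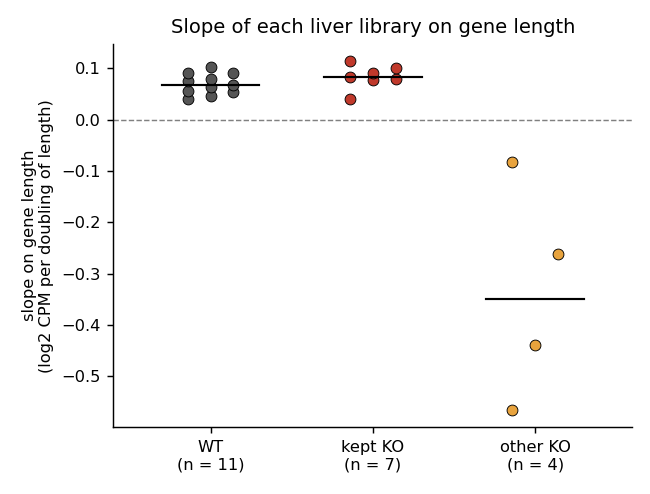
Slope of each liver library on gene length (y axis, log2 CPM per doubling of length) for WT livers, kept KO livers and other KO livers. Each point is a library, black bars are medians and the dashed line is the threshold of 0. The 7 kept KO livers lie between 0.0405 and 0.113, and the 4 other KO livers lie below 0.

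The liver takes up lactate as a substrate of gluconeogenesis, oxidises fatty acids in its mitochondria, and makes fatty acids and cholesterol through genes driven by the transcription factors SREBP1 and SREBP2. Gene length differed widely between these pathways. The median length was 666 bases for subunits of complex I and 639 for cytosolic ribosomal proteins, but 2861 for de novo lipogenesis and 2697 for cholesterol synthesis. These pathways and the respiratory chain are therefore given in turn after the deleted gene.

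Slc16a13 (ENSMUSG00000044367) lies on the minus strand at chr11:70216789-70221064 of GRCm38 in the GENCODE M21 annotation. Its transcript of 2531 bases has 4 exons, and exons 1 to 3, which the KO mice lack, hold 84.2% of the coding bases without the stop codon and 55.2% of the transcript. Exon 4, with 1133 bases and most of the 3′ untranslated region, lies outside the deletion. The coding part of exon 1, which is missing from the KO allele, is printed here with the start codon in capitals.
Slc16a13 exon 1: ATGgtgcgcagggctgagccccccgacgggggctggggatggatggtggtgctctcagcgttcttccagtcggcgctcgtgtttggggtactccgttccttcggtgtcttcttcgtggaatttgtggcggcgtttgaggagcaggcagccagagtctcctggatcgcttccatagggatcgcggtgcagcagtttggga

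Between 99 and 302 reads (median 149) were counted on Slc16a13 in WT livers. In the kept KO livers the counts were 5 in animal 561, 4 in animal 568, 3 in animal 570, 3 in animal 587, 1 in animal 588, 0 in animal 597 and 2 in animal 598. The groups did not overlap, and every kept KO liver lay far below the lowest WT liver. On the CPM scale WT livers ranged from 3.76 to 9.19 and kept KO livers from 0 to 0.201, a log2 fold change of -5.83 (SE 0.31, adjusted p = 8.1e-10, edgeR quasi-likelihood test with Benjamini-Hochberg adjustment). The 4 other KO livers had between 0 and 8 reads. The deleted gene thus matched the label of every liver library, although counts were given per gene and the few remaining reads cannot be placed on an exon.

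Of 13210 genes tested in the 7 kept KO and 11 WT livers, 1 was lower in KO (0.00757% of those tested), which was Slc16a13 itself, and 2 were higher (0.0151%). These were Scp2-ps2, a transcribed pseudogene of Scp2, which encodes sterol carrier protein 2 of the peroxisome, and Mup5, one of the major urinary proteins, which bind pheromones. Slc16a13 was also the only gene whose groups did not overlap (0.00757% below and 0% above WT). At an unadjusted p under 0.05, 391 genes differed (2.96%), 179 higher (1.36%) and 212 lower (1.6%). If no gene differed, 5% would be met on average, and genes that vary together widen the spread around it. The members were chosen by a slope computed from the same libraries, so these p-values describe the chosen libraries.

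With all 11 KO livers in the fit, Slc16a13, Scp2-ps2 and Mup5 were again the genes that passed, among 13005 tested, but 1675 genes (12.9%) had an unadjusted p under 0.05, 1272 of them higher (9.78%) and 403 lower (3.1%). Both comparisons share the 11 WT livers, so their values are only set side by side. The median absolute log2 fold change was 0.06 with the kept livers and 0.14 with all 11. The median standard error was 0.09 and 0.12, respectively. The median SD of a gene's log2 CPM was 0.186 over the 7 kept KO livers, close to 0.177 over the 11 WT livers, and 0.352 over all 11 KO livers. With the 4 libraries left out, the spread within the KO group was close to that within WT. Those libraries were set aside by a slope on the same values, so a smaller spread is in part given by that choice. No further gene passed with 7 KO livers in place of 11, although the standard errors were smaller.

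In the WT livers, Scp2-ps2 (ENSMUSG00000058492) ranged from 4.55 to 6.12 CPM (median 5.06), and in the kept KO livers from 5.92 to 7.59 CPM (median 7.27). Kept KO animal 598 had the lowest value and overlapped with WT, whereas the other 6 kept KO livers lay at or above 7.14 CPM and thus above every WT liver. The log2 fold change was 0.46 (SE 0.07, adjusted p = 0.024, edgeR). The 4 other KO livers, which took no part in this test, ranged from 6.93 to 8.92 CPM, also above every WT liver. They were set aside for fewer reads on long genes, so they are no independent check. With all 11 KO livers and gene length removed, the log2 fold change was 0.34 and did not pass (adjusted p = 0.534, edgeR). The parent gene Scp2, far more abundant, had 2471 to 3191 CPM in WT and 2456 to 3028 CPM in kept KO livers (log2 fold change -0.07, SE 0.06, adjusted p = 0.999, edgeR).

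Counts on Scp2-ps2 are uncertain, since its annotated sequence (chr9:123306600-123317998, GRCm38, minus strand) is nearly that of Scp2 (chr4:108043839-108144998, minus strand). Over 475 aligned bases, the pseudogene transcript Scp2-ps2-201 had 1 substitution against Scp2-201, an identity of 99.8%. Of 1424 distinct stretches of 85 bases, the read length, in the transcripts of Scp2-ps2, 893 (62.7%) were also found in a transcript of Scp2. The 90 bases around that substitution, which lie in the coding sequence of Scp2, show how little sets the genes apart (GENCODE M21 transcripts, difference in capitals).
Scp2: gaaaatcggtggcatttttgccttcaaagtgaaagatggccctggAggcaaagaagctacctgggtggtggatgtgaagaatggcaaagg
Scp2-ps2: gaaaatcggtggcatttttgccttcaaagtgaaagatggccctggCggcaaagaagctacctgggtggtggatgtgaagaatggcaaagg

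Mup5 (ENSMUSG00000058523, chr4:61831319-61835233, GRCm38, minus strand) ranged from 0.193 to 0.912 CPM (median 0.486) in WT and from 0.833 to 2.6 CPM (median 1.31) in kept KO livers. Only the lowest kept KO liver overlapped with the highest WT liver. The log2 fold change was 1.73 (SE 0.28, adjusted p = 0.024, edgeR), on a low level in both groups. In the 4 other KO livers Mup5 was at 1.38 to 5.07 CPM, again above every WT liver. They were chosen by their reads on long genes and are no independent check here either. Of 18 other Mup genes tested, 17 had a positive log2 fold change (median 0.23, range -0.18 to 0.60), and none had an unadjusted p under 0.05 in edgeR or passed the test.

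The Mup genes are a tandem family of close copies. The coding sequence of Mup5 (543 bases) was identical to those of 21 other Mup genes at 86.7% to 93.1% of bases aligned without a gap, and was closest to Mup4. Unlike Scp2-ps2, only 26 of 841 distinct stretches of 85 bases in Mup5 (3.09%) occurred in another Mup transcript. The stretch of 90 coding bases with most differences from Mup4 holds 11 of them, shown in capitals, which lets reads of this length be told apart (GENCODE M21).
Mup5: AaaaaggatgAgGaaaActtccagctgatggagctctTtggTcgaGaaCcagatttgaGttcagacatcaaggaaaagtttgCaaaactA
Mup4: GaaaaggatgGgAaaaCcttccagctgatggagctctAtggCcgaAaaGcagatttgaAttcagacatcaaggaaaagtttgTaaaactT

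**Figure D2:**
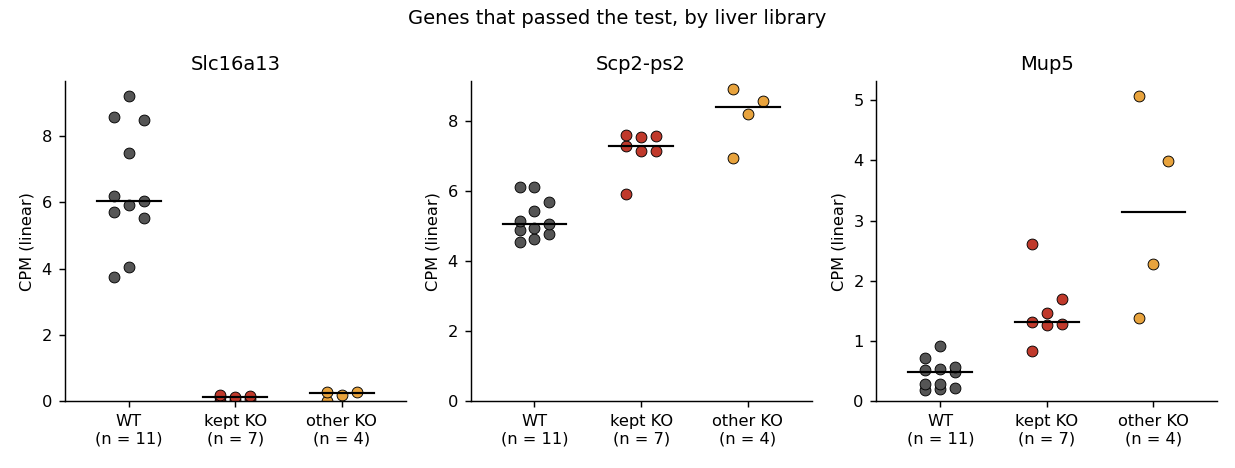
CPM (y axes, linear) of the 3 genes that passed the test, by liver library. Points are libraries and black bars medians. Slc16a13 is at or below 0.201 CPM in the 7 kept KO livers and at or above 3.76 CPM in WT, while for Scp2-ps2 and Mup5 the lowest kept KO liver (5.92 and 0.833 CPM) lies within the WT range. The 4 other KO livers were not in the test.

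The calls of Scp2-ps2 and Mup5 were not firm. When each of the 18 libraries was left out in turn, Slc16a13 passed in all 18 fits, Scp2-ps2 in 11 and Mup5 in 8. Scp2-ps2 kept a log2 fold change of 0.44 to 0.50 and Mup5 of 1.55 to 1.89, so the values were stable while the adjusted p crossed the threshold. Without any 1 of KO animals 561, 568, 570, 587 or 588, or without WT animal 612, neither passed (adjusted p between 0.054 and 0.085, edgeR).

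The next genes by p did not pass. Cyp1a1, which oxidises aromatic compounds after activation of the aryl hydrocarbon receptor, had the smallest unadjusted p among the higher ones (log2 fold change 5.06, SE 1.15, adjusted p = 0.954, edgeR), and this value came from 1 library described further on. Gm5096 (0.27, SE 0.07) and Gm13340 (0.34, SE 0.09) followed. Among the lower ones were Pir (-0.30, SE 0.07), which encodes the nuclear protein pirin, Rpl12 (-0.14, SE 0.04), a protein of the large ribosomal subunit, Pinx1 (-0.42, SE 0.11), an inhibitor of telomerase, and Tmem97 (-0.32, SE 0.08), the sigma-2 receptor. These 6 genes had an adjusted p of 0.999 (edgeR). In WT livers Rpl12 ranged from 68.3 to 78.0 CPM, in kept KO livers from 62.7 to 68.6 CPM and in the other KO livers from 82.5 to 180 CPM, so the other libraries lay on the opposite side of WT.

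Near the deletion, 5 of 10 neighbouring genes could not be tested or matched, and of the 5 tested (Asgr2, Clec10a, Slc16a11, Bcl6b and 0610010K14Rik) none passed. Slc16a11, the adjacent monocarboxylate transporter, had 203 to 315 reads in WT and 238 to 355 in kept KO livers, or 8.41 to 12.9 and 9.55 to 14.8 CPM. Both groups overlapped over most of their range, with a log2 fold change of 0.31 (SE 0.10, unadjusted p = 0.0057, adjusted p = 0.999, edgeR). Bcl6b, a transcriptional repressor of endothelial cells, was at 2.02 to 5.23 CPM in WT and 1.45 to 3.98 CPM in kept KO livers (log2 fold change -0.49, SE 0.21, unadjusted p = 0.032, adjusted p = 0.999, edgeR). For Asgr2, Clec10a and 0610010K14Rik the log2 fold changes were 0.05, 0.03 and 0.07.

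For the 10 SLC16 genes tested besides Slc16a13, the median log2 fold change was 0.00, as over all 13210 genes (0.00066), and Slc16a11 was the only member with an unadjusted p under 0.05. The lactate transporters Slc16a1 (MCT1) and Slc16a7 (MCT2) had log2 fold changes of 0.03 and -0.04 (edgeR adjusted p = 0.999). Per length, Slc16a7 was at 26.8 to 47.5 RPKM in WT and 26.8 to 46.3 RPKM in kept KO livers, and Slc16a1 at 13.9 to 24 and 9.55 to 24.8 RPKM. Slc16a13 itself was at 1.5 to 4.78 RPKM in WT livers, below both. No shift of another monocarboxylate transporter was thus detected at this depth.

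Of 19 genes of lactate and pyruvate handling, none had an unadjusted p under 0.05, and their median log2 fold change was -0.03. These included Ldha (0.08), which interconverts lactate and pyruvate, Pdhx (-0.07, SE 0.04) of the pyruvate dehydrogenase complex and Ldhb (-0.22, SE 0.13). Likewise, none of 23 genes of gluconeogenesis and insulin signalling (median 0.00), such as the insulin receptor gene Insr (0.10, SE 0.05) and Prkce (0.11, SE 0.08), and none of 13 genes for AMPK subunits and their upstream kinases (median 0.00), such as Prkab2 (-0.21, SE 0.12) and Stradb (0.04, SE 0.04), had an unadjusted p under 0.05. Of the 34 genes of fatty acid oxidation and PPAR alpha targets, 20 had a positive and 14 a negative value (median 0.01), among them Ehhadh (0.28, SE 0.17) and Echs1 (-0.07, SE 0.04), both of β-oxidation. With all 11 KO livers, 6 of these 34 had an unadjusted p under 0.05, all higher, where 9.78% of all genes were.

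For the nuclear-encoded subunits of the respiratory chain, the median turned from negative to positive with the choice of libraries. With the 7 kept KO livers none of 36 subunits of complex I passed, 34 had a negative log2 fold change and the median was -0.05, with 4 lower and 0 higher at an unadjusted p under 0.05, where 1.6% of all genes were lower and 1.36% higher. With all 11 KO livers the median was 0.30 and 35 of 36 were positive, 19 of them at an unadjusted p under 0.05 and 1 lower, where 9.78% and 3.1% of all genes were. The mean log2 CPM over these 36 genes ranged from 5.77 to 5.92 in WT livers, from 5.73 to 5.87 in kept KO livers and from 6 to 6.87 in the other KO livers. The kept KO livers thus overlapped with WT over nearly the whole range, and all 4 other KO livers lay above both. Genes of complex I are short and the livers were sorted by gene length, so this split is in part given by that choice.

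Examples from each complex followed the same pattern. Ndufb6, an accessory subunit of complex I, was at 37.8 to 48.1 CPM in WT, 37 to 41.6 CPM in kept KO and 45.5 to 89.3 CPM in other KO livers (log2 fold change -0.13, SE 0.05, adjusted p = 0.999, edgeR). Ndufc2 of the same complex was at 36.2 to 47.5, 34.3 to 40.9 and 42 to 74.0 CPM. In both cases the kept KO livers overlapped with the lower WT values, and the lowest of them lay below every WT liver. Uqcr11 of complex III was at 71.7 to 99.9, 70.5 to 87.6 and 91.2 to 238 CPM (-0.17, SE 0.06), and Uqcr10 at 61.8 to 80.5, 59.4 to 71.4 and 73.8 to 185 CPM (-0.13, SE 0.05).

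The median of the 14 tested subunits of complexes II and III was -0.03 with the kept livers and 0.18 with all 11. For the 12 subunits of complex IV it was -0.05 and 0.30, with Cox7c at -0.10 (SE 0.04) and Cox8a at -0.08 (SE 0.04) in the kept livers. For the 15 subunits of complex V, the ATP synthase, it was -0.03 and 0.28, with Atp5g3 at -0.08 (SE 0.04) and Atp5c1 at -0.05 (SE 0.04). None of these 41 subunits passed (edgeR adjusted p = 0.999 for those named). The 7 mitochondrially encoded subunits moved the other way, with a median of 0.01 in the kept livers, including mt-Nd1 (0.11, SE 0.08) and mt-Nd2 (0.10, SE 0.09), and -0.11 with all 11.

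Other groups of short genes behaved alike, and the same limit from the sorting by gene length holds for them. Of 79 cytosolic ribosomal proteins, which form the small and large subunits of the ribosome, 67 had a positive log2 fold change at an unadjusted p under 0.05 with all 11 KO livers (median 0.37, with 9.78% of all genes higher), against 0 higher and 6 lower with the kept livers (median -0.05, with 1.36% of all genes higher and 1.6% lower). Their mean log2 CPM was 6.23 to 6.41 in WT, 6.2 to 6.33 in kept KO and 6.51 to 7.59 in other KO livers. Rpl3 was at -0.12 (SE 0.05) in the kept livers. Among 76 mitochondrial ribosomal proteins the median was -0.04 with the kept livers and 0.24 with all 11, with Mrps26 at -0.14 (SE 0.05) and Mrpl57 at -0.25 (SE 0.08) in the former. For 38 proteasome subunits the median was 0.01 and 0.23, with Psme1 at -0.09 (SE 0.04) and the inhibitor Psmf1 at -0.08 (SE 0.04) in the kept livers. None of these genes passed (edgeR adjusted p = 0.999 for those named).

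**Figure D3:**
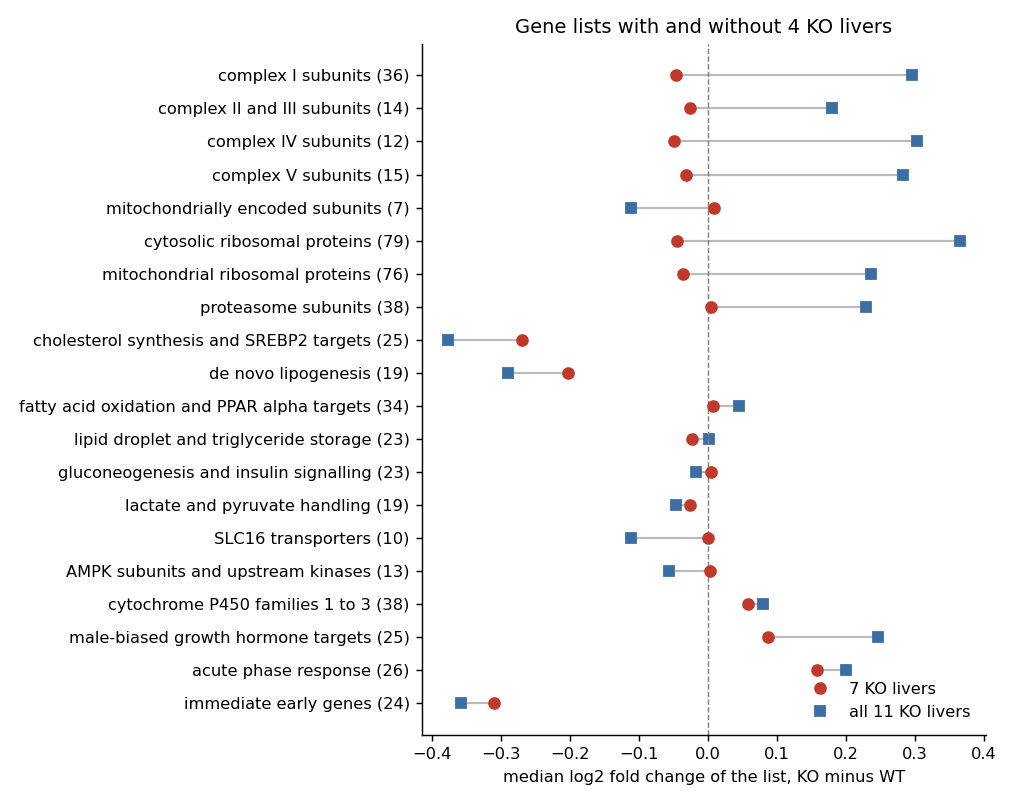
Median log2 fold change, KO minus WT (x axis), of each gene list (y axis, genes tested in brackets) with the 7 kept KO livers (circles) and with all 11 KO livers (squares). The lists of respiratory chain, ribosome and proteasome lie between -0.05 and 0.01 with the kept livers and between 0.18 and 0.37 with all 11, except the mitochondrially encoded subunits (0.01 and -0.11), while cholesterol synthesis, de novo lipogenesis and immediate early genes lie below 0 in both.

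Transcripts of lipid synthesis genes were lower in value in the kept livers, but no member passed. They do not measure the rate of synthesis. The paper measured hepatic de novo lipogenesis with deuterated water and found no genotype difference on HFD. Of 19 genes of de novo lipogenesis, 18 had a negative log2 fold change in the kept livers (median -0.20), and 6 had an unadjusted p under 0.05, all lower, which is a larger share than the 1.6% of all genes. These were Acly and Slc25a1, which supply citrate-derived acetyl-CoA, Acaca, the acetyl-CoA carboxylase, Fasn, the fatty acid synthase, and Elovl6 and Fads1, which elongate and desaturate fatty acids. With all 11 KO livers the median was -0.29, with 9 lower, where 3.1% of all genes were. These genes are long, so the lower value with all 11 is in part given by the sorting by gene length. With gene length removed from all 11, the median was -0.21, with 17 genes negative and 2 positive, Acaca among the latter. With gene length removed from the kept libraries, the median was -0.19, with 5 lower, where 157 of all 13209 genes tested were.

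Fasn ranged from 87.0 to 154 CPM (median 112) in WT, from 78.3 to 103 CPM (median 91.3) in kept KO and from 53.1 to 74.0 CPM in other KO livers. The kept KO livers overlapped with the lower WT values, and the lowest of them lay below every WT liver (log2 fold change -0.35, SE 0.10, unadjusted p = 0.0029, adjusted p = 0.999, edgeR). Elovl6 was at 26.2 to 44.1 CPM in WT and 21 to 39 CPM in kept KO livers (-0.32, SE 0.11, unadjusted p = 0.0075, adjusted p = 0.999, edgeR). Acaca was at 21.7 to 31.8 and 16.9 to 28.7 CPM (-0.21, SE 0.09). The lipogenic regulator Srebf1 (-0.22, SE 0.13) and the stearoyl-CoA desaturase Scd1 (-0.39, SE 0.34) had negative values with larger errors, and Scd1 alone spanned 571 to 7209 CPM among the kept KO livers. Acaca, Srebf1 and Scd1 were picked for their place in the pathway after their values were seen.

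The mean log2 CPM over the 19 lipogenic genes was 6.79 ± 0.16 (SD) in 11 WT livers and 6.57 ± 0.18 (SD) in the 7 kept KO livers. WT livers ranged from 6.44 to 7.08 and kept KO livers from 6.30 to 6.85, so the groups overlapped. The other KO livers lay between 5.95 and 6.48. Leaving out WT animal 624, which was highest, gave a median log2 fold change of -0.15 with 3 genes lower at an unadjusted p under 0.05, where 172 of all 13165 genes tested were. Leaving out KO animal 597, the highest of the kept KO livers, gave -0.26 with 7 lower. In that fit 451 of all 13272 genes tested were lower, against 212 of 13210 with the animal included, so more genes were lower in general.

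Of 25 genes of cholesterol synthesis and other SREBP2 targets, 24 had a negative log2 fold change (median -0.27), 4 of them at an unadjusted p under 0.05, where 1.6% of all genes were lower, among them Acat2, Nsdhl and Dhcr7. Nsdhl and Dhcr7 act in the late steps from lanosterol to cholesterol. Acat2, a cytosolic thiolase, was at 23.7 to 34.6 CPM in WT and 20.5 to 29.2 CPM in kept KO livers (-0.27, SE 0.08, unadjusted p = 0.0036, adjusted p = 0.999, edgeR). Nsdhl was at 12.6 to 46.8 and 8.84 to 27.5 CPM (-0.66, SE 0.27). In both genes the groups overlapped, and the WT livers reached higher.

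Sqle, the squalene epoxidase, was at 3.93 to 58.2 CPM in WT and 2.23 to 23.1 CPM in kept KO livers, with wide overlap and a log2 fold change of -0.83 (SE 0.49, adjusted p = 0.999, edgeR). It was also picked after its values were seen. With all 11 KO livers the median of the list was -0.38, with 15 lower and 1 higher at an unadjusted p under 0.05, where 3.1% and 9.78% of all genes were. Genes of this list are also long, so the same limit from the sorting by gene length holds. With gene length removed from all 11, the median was -0.34, with 24 genes negative and 1 positive.

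WT livers varied widely in this pathway. The mean log2 CPM over its 25 genes was 5.40 ± 0.52 (SD) in WT, from 4.67 to 6.33, and 5.13 ± 0.34 (SD) in the kept KO livers, from 4.60 to 5.64. All kept KO livers but the lowest lay inside the WT range, and the highest WT livers lay above every kept KO liver. Without WT animal 567, the highest, the median log2 fold change was -0.16, with 2 genes lower at an unadjusted p under 0.05, where 214 of all 13184 genes tested were. Of 23 genes of lipid droplets and triglyceride storage, 1 had an unadjusted p under 0.05, where 2.96% of all genes did. This was Fitm1 (-0.31, SE 0.11), and the median was -0.02. Cidec, which enlarges lipid droplets, ranged from 9.57 to 109 CPM in WT and from 6.53 to 60.7 CPM in kept KO livers (-0.71, SE 0.49), with a log2 fold change of -0.43 without WT animal 624 and -1.12 without KO animal 597.

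Immediate early genes, which are induced within minutes by growth factors or stress, had a median log2 fold change of -0.31 in the kept livers, with 22 of 24 negative and 1, Jund, at an unadjusted p under 0.05 (-0.32, SE 0.11). Of all genes, 1.6% were lower at that threshold. Jun was at 7.75 to 186 CPM in WT and 8.45 to 31.5 CPM in kept KO livers (-1.16, SE 0.60), and without WT animal 624 its log2 fold change was -0.36. WT animal 624 had the highest mean over the list, 4.14 on the log2 CPM scale, while the next of the 22 livers had 3.03. Without this animal the median was -0.06, with 16 of 23 negative and 1 lower and 1 higher at an unadjusted p under 0.05. Of all 13165 genes tested in that fit, 172 were lower and 156 higher.

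**Figure D4:**
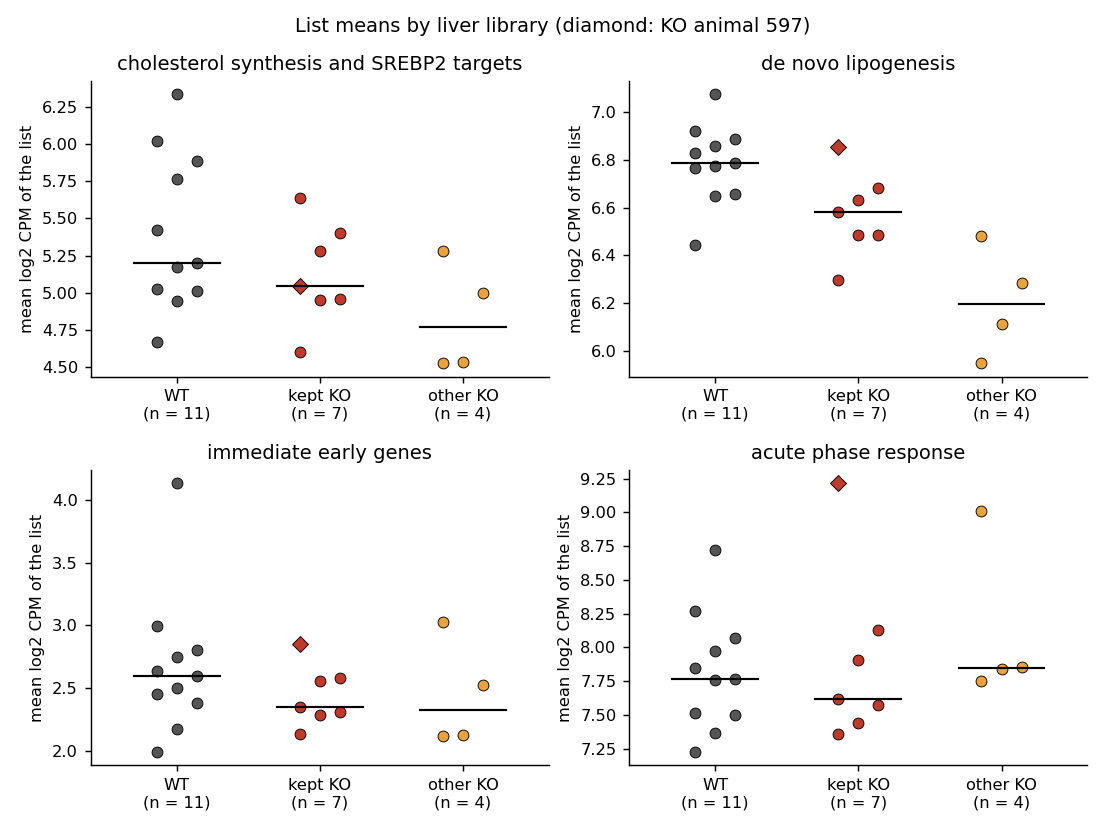
Mean log2 CPM (y axes) over the genes of 4 lists in each liver library, with medians as black bars and KO animal 597 as a diamond. The kept KO livers overlap with WT in all 4 lists, WT animal 624 stands highest in immediate early genes at 4.14, and KO animal 597 stands highest in the acute phase response at 9.22.

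KO animal 597, whose slope of 0.0910 was within the range of WT, stood apart from the other kept KO livers. In it, 484 of 13210 genes lay more than 1 log2 unit from the median of the other kept KO livers, against 213 to 353 in those and 156 to 480 in WT livers measured the same way. It had 173 CPM of Cyp1a1, whereas the next kept KO liver had 0.858 and the highest WT liver 1.33 CPM. Cyp1a2, its constitutive liver relative, was at 1070 CPM in this liver, next to 395 in the kept KO livers and 318 in WT. The acute phase genes Saa1 and Saa2, which encode serum amyloid A, reached 2592 and 1807 CPM, next to 118 and 54.0 CPM in the kept KO livers and 784 and 239 CPM in WT.

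The values of these genes rested on this animal. Without it the log2 fold change of Cyp1a1 went from 5.06 to -0.21, that of Saa2 from 2.17 to -1.23 and that of Saa1 from 1.40 to -1.04, none with an adjusted p under 0.05 in edgeR. For the 26 acute phase genes the median was 0.16 with 22 positive when the animal was included, and -0.02 with 12 positive and 4 lower at an unadjusted p under 0.05 when it was left out. Over all genes, 777 (5.85%) then had an unadjusted p under 0.05, 326 higher and 451 lower, and Mup5 and Slc16a13 passed. Among 38 genes of cytochrome P450 families 1 to 3, 3 had an unadjusted p under 0.05 in the 7 kept livers, all higher, where 1.36% of all genes were. These were Cyp1a1, Cyp1a2 (0.78, SE 0.29, and 0.28 without this animal) and Cyp2b10 (0.54, SE 0.24). The median was 0.06 with or without this animal.

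**Figure D5:**
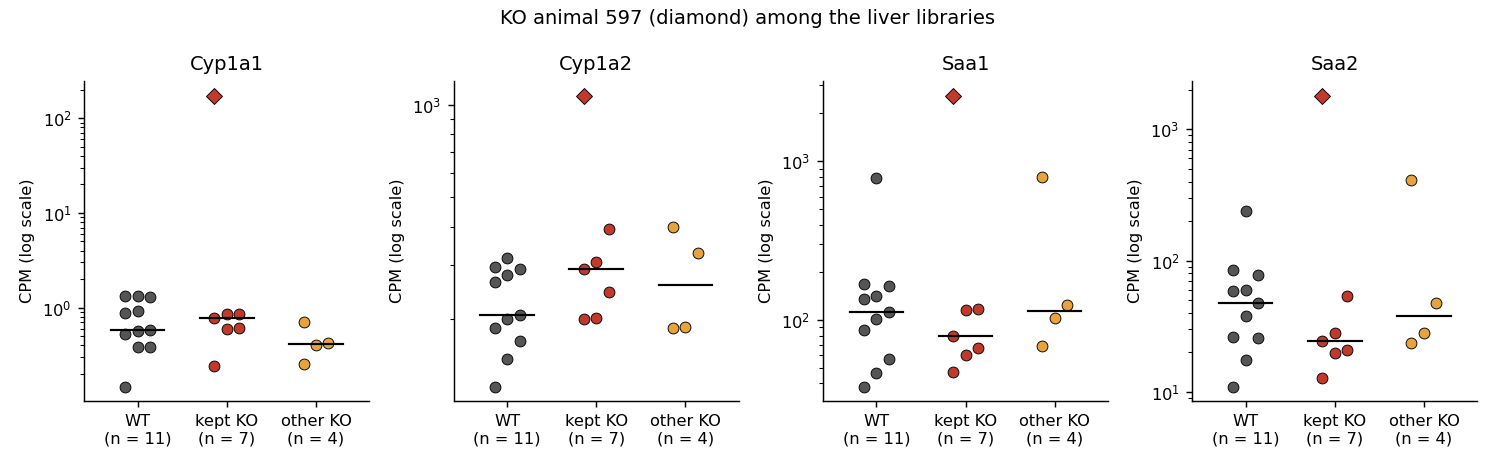
CPM (y axes, log scale) of Cyp1a1, Cyp1a2, Saa1 and Saa2 by liver library, with medians as black bars and KO animal 597 as a diamond. This animal holds the highest value of all livers in each panel, with 173 CPM of Cyp1a1, and the other 6 kept KO livers lie among the WT livers in Cyp1a1, Saa1 and Saa2.

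Male-biased growth hormone targets, to which Mup5 belongs, had a median log2 fold change of 0.09 over 25 genes, 18 positive and 7 negative, and apart from Mup5 none passed. Ugt2b38, a glucuronosyltransferase, was at 0.122 to 1.16 CPM in WT and 0.0439 to 0.546 CPM in kept KO livers (-1.10, SE 0.46, adjusted p = 0.999, edgeR). The list median depended on single livers and was 0.01 without KO animal 568, 0.02 without KO animal 598 and 0.22 without WT animal 623.

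The liver label was met in every library. The 7 hepatocyte markers, albumin included, summed to 84241 to 112002 CPM in WT and 91763 to 110003 CPM in kept KO livers. Markers of Kupffer cells and macrophages summed to 437 to 653 and 423 to 662 CPM (10 genes, median log2 fold change 0.12, 2 higher at an unadjusted p under 0.05, where 1.36% of all genes were), and to 482 to 1454 CPM in the other KO livers. Erythroid markers, with a median length of 556 bases, summed to 227 to 339, 199 to 286 and 393 to 502 CPM. The other KO livers were set apart by fewer reads on long genes, which bears on sums over short markers. In bulk tissue, fewer cells of a type and less RNA per cell cannot be told apart.

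Skeletal muscle was the only marker list with members lower at an unadjusted p under 0.05 in the kept KO livers. Of its 7 markers found, these were all 5 that were tested (median log2 fold change -2.29), where 1.6% of all genes were lower, but none passed. Ckm had 0 to 7 reads in kept KO livers and 4 to 179 in WT, so it met the filter on counts through WT. That the tested markers were lower is thus in part given by the filter. The creatine kinase gene Ckm was at 0.177 to 7.55 CPM in WT and 0 to 0.281 CPM in kept KO livers (-2.91, SE 0.82, adjusted p = 0.999, edgeR), and the actin gene Acta1 at 0.398 to 9.36 and 0 to 0.522 CPM (-2.81, SE 0.79). Summed over the list, WT livers ranged from 2.69 to 61.3 CPM, the highest being animal 516, kept KO livers from 0.626 to 4.13 CPM and other KO livers from 3.50 to 21.4 CPM. Without WT animal 516 the median was -1.30 over the 3 markers still tested. The part of these transcripts in other differences was not tested.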

How the data were processed

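RNA-Seq of liver from 11 WT and 11 KO mice was used. The authors deposited raw read counts for 38202 genes and RPKM values, which they scaled to gene length and library size. The aligner, the counting program and the genome build are not given in the sources used here. The 22 liver columns were matched to the labels, and no column was left without a sample. Symbols were found for 36340 genes (GENCODE M21). Gene lengths were derived from the ratio of counts to RPKM (median over libraries with at least 10 counts). The libraries, members and gene lists were chosen with earlier results of these data known.

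Counts were tested with edgeR 4.0.16 (R 4.3.3), by its quasi-likelihood test after TMM scaling and filterByExpr, with p-values adjusted by Benjamini-Hochberg and a threshold of 0.05, on 7 KO and 11 WT livers, and log2 CPM used a prior count of 2. The other KO livers were scaled together with all 22 livers for display. Fits with DESeq2 1.42.0 and limma 3.58.1 (voom, or log2 RPKM with a pseudocount of 0.1 or 1, where fold changes of low genes are understated), other scalings and filters, gene length removed by loess with a span of 0.3, and each library left out were alternatives. The procedure was tested on simulated data. No 2 liver libraries held identical counts (0 pairs). Each animal was 1 library, and precision is limited by 7 and 11 animals. Transcripts were aligned with Biopython 1.88.

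Genes named are Slc16a13, its 5 neighbours on each side, the 5 smallest p in each direction, the members of each list described that passed and its 2 smallest p, and genes marked as picked after their values were seen, to which Ldha, Slc16a1, Slc16a7, Dhcr7, Acly, Slc25a1, Fads1 and Cyp2b10 also belong. Some members of the lists are not reported here by name. Muscle libraries were not used here.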

Additional observations from a re-analysis of the deposited data

Results flagged for a closer look

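In 7 of 61 named genes that were tested, 1 of the 7 kept KO livers lay apart from the others (its gap to the nearest, divided by the whole range and given in brackets, was above Dixon's 95% critical value for 7 samples, as chance alone gives in about 1 in 20 groups). KO animal 597 was the highest for Cyp1a1 (0.83), Cyp1a2 (0.597), Saa1 (0.772) and Saa2 (0.709). KO animal 598 was the lowest for Scp2-ps2 (0.754), at 5.92 CPM next to 7.14 CPM, and the highest for mt-Nd2 (0.59), at 7832 CPM next to 6573 CPM. KO animal 570 was the lowest for 0610010K14Rik (0.623), at 8.16 CPM next to 9.52 CPM.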

How the results depend on the processing

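No paired analysis was possible because the WT and KO livers share no animal. Slc16a13 passed in every fit that tested it (log2 fold change -5.91 to -1.80, the latter on log2(RPKM + 1), and -6.05 to -5.62 with a library left out), and with at least 10 counts in every library it was not tested, so 0 genes were lower. The number of genes higher was 2, but 0 with KO livers at or above the lowest WT slope and with at least 10 counts in every library, and 1 with all 11 KO livers and gene length removed, with library size alone and with either RPKM pseudocount, and it was 0 to 2 with a library left out. Genes without overlap numbered 1, but 2 with the lowest WT slope as threshold and with no filter, 0 with at least 10 counts, and 1 to 3 with a library left out. Genes at an unadjusted p under 0.05 numbered 391, but 1675 with all 11 KO livers, 1191 when gene length was also removed, 190 in 1 fit over 22 livers and 945 with no filter, and 313 to 777 with a library left out.

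With all 11 KO livers the log2 fold change changed sign for Rpl12 (0.29), Ndufb6 (0.23), Ndufc2 (0.15), Uqcr11 (0.33), Uqcr10 (0.33), Cox7c (0.22), Cox8a (0.20), Atp5g3 (0.18), Atp5c1 (0.16), mt-Nd1 (-0.0149), mt-Nd2 (-0.11), Rpl3 (0.20), Mrps26 (0.25), Mrpl57 (0.14), Psme1 (0.40), Echs1 (0.0473), Insr (-0.17), Prkce (-0.12) and Stradb (-0.0153). With gene length removed from all 11 it changed sign for Rpl12 (0.0309), Acaca (0.0296), Uqcr11 (0.0064), Uqcr10 (0.0144), Atp5c1 (0.0225), mt-Nd1 (-0.10), mt-Nd2 (-0.17), Rpl3 (0.0737), Mrps26 (0.0720), Mrpl57 (0.16), Psme1 (0.0918), Stradb (-0.0573) and Jund (0.0660). DESeq2 gave -0.19 for Cyp1a1, -0.63 for Saa2 and -0.32 for Saa1, limma-voom -0.0130 for Saa2, and the RPKM fits -0.0145 and -0.00758 for Saa2 and -0.36 and -0.16 for Clec10a at pseudocounts of 0.1 and 1. The cause was not tested.
With a library left out, Clec10a lay between -0.13 and 0.12, Cyp1a1 between -0.21 and 5.29, Saa2 between -1.23 and 2.66 and Saa1 between -1.04 and 2.07, and for the last 3 only the omission of KO animal 597 changed the sign. The median standard error over all genes tested was 0.09 on the log2 scale. Named respiratory chain and ribosomal genes had errors such as 0.04 (Cox8a and Rpl12) and 0.08 (Mrpl57). The medians of their lists were of about that size or smaller, and no single member passed. The error of a single gene is not that of a list median, which was not estimated. Genes with few reads, such as Mup5 (SE 0.28) and Ugt2b38 (SE 0.46), were measured with larger errors.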
